A study of Mus musculus with 52 samples.

Results

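Ribosome biogenesis, the making of ribosomes in the nucleolus, is followed here through 37 genes, chosen by name because their products are known to make, modify or assemble ribosomal RNA and its early subunit precursors. The choice was made with earlier results of these data known, so counts of members beside those of all genes are a description. All 37 genes were found by exact symbol among the 24116 genes of the table, and all 37 passed the filter on low values. They were 3 genes of RNA polymerase I, 3 of the box C/D and 4 of the box H/ACA ribonucleoproteins, 5 nucleolar proteins and helicases, 13 small subunit factors and 9 large subunit factors.

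RNA was sequenced in bulk from intestinal organoids, spheres of gut epithelium that grow from single cells, of wild type C57BL/6 mice aged 8 weeks. Organoids of 2 male littermates were sampled in duplicate, and each sample pooled 3 wells seeded with 50000 single cells. The 13 groups were DMSO, the solvent control, on days 0, 1, 3, 4 and 5, and on days 1, 3, 4 and 5 also 10 µM all-trans retinoic acid (atRA), which activates retinoic acid receptors, and 5 µM of an antagonist of the retinoid X receptor (RXRi), their partner in binding DNA. The medium given for every group was one of EGF, Noggin and R-spondin (ENR). Until day 3 it also held 20% Wnt3a-conditioned medium, 10 µM Y-27632 (an inhibitor of the kinase ROCK) and 3 µM CHIR99021 (an inhibitor of the kinase GSK3B). On day 3 these additions ended and the treatment was repeated, so days 4 and 5 differ from days 1 and 3 in medium as well as in age. Day 0 is labelled as 0 hours, so days 0 and 1 may also differ in exposure to the medium and its additions. The design text counts 4 treatment conditions, of which the labels name 3. The wells of a mouse stand for 1 animal, so n = 2 cultures in every group, and each culture value below is the mean of its duplicates.

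A cell makes ribosomes by transcribing a long ribosomal RNA precursor with RNA polymerase I. Small nucleolar ribonucleoproteins then modify it, and processing factors cut, fold and pack it into the small and large subunits. The genes for these factors are known to be used most in growing and dividing cells, and in the gut epithelium such cells lie in the crypts. MYC, a transcription factor that binds the E-box CACGTG, is known for driving many of them.

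The promoters of the members were searched for that E-box, because it is the site most often tied to this gene group. In the RefSeq promoter table of GRCm38.p6 (mm10), which runs from 250 bases before to 50 after each start site, 32 of the 37 members had an entry. CACGTG, which reads the same on both strands, stood in the promoters of 7 of the 32 (21.9%), namely Ltv1, Mybbp1a, Nop2, Pes1, Tsr1, Utp20 and Wdr43. It stood in 11.9% of the 9792 tested genes with an entry and in 8.09% of all 27025 genes. The 4 members with the motif and the widest range over the DMSO days are printed here, 5′ to 3′ on the plus strand, with CACGTG in capitals. They lie at chr6:125131633-125131932 (Nop2, 60 bases before the start site), chr11:72441077-72441376 (Mybbp1a, 40 after), chr17:71615965-71616264 (Wdr43, 17 after) and chr11:74897830-74898129 (Tsr1, 24 after).
Nop2: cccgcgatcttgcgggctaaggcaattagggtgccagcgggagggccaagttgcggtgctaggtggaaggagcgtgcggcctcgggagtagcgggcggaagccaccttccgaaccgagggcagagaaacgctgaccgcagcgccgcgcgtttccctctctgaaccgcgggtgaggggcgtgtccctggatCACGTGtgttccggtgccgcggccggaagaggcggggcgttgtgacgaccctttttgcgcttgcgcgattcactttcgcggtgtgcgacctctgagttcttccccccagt
Mybbp1a: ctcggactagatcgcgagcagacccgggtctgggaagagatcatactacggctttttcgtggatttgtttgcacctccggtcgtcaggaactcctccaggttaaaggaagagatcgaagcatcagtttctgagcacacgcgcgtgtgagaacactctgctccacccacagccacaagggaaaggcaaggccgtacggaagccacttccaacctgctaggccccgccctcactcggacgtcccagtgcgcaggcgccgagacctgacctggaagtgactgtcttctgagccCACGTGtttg
Wdr43: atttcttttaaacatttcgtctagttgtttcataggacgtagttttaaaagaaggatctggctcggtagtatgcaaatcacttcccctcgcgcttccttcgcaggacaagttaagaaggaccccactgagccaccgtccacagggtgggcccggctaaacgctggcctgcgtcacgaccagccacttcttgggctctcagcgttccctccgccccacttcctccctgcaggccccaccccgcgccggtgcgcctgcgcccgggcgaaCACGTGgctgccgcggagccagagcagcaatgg
Tsr1: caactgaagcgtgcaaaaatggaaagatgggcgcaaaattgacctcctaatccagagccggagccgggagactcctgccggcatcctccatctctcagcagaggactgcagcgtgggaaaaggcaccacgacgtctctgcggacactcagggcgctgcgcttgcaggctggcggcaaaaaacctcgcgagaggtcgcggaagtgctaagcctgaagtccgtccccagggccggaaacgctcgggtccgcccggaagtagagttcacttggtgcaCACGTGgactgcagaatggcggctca

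A match of these letters is a description of the sequence and not evidence of binding. The 7 members with the motif and the 25 without it had similar medians in the comparisons below, -1.21 and -1.20 on the log2 scale from day 3 to day 4, and -0.40 and -0.34 for RXRi over DMSO. From day 0 to day 1 the medians were 0.47 with it and 0.71 without it. None of these differences was tested.

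The 51 libraries used held 12895667 to 26206028 reads, with a median of 19686970, and a further library of day 1 DMSO was left out because it held 12443. Day 1 DMSO therefore has 1 library for culture 1. The members took 36434 to 236774 reads per library, and no member had fewer than 189 reads in a library used. Of the 7 epithelial markers, Epcam lay between 257 and 789 RPKM (reads per unit of gene length and of library size). Cdx1 was the lowest of them, at 1.08 RPKM in 1 library. In RXRi over DMSO, mean of 4 days, 4 of the 7 were higher and 3 lower (limma). Their values ran from -3.95 to 1.68 on the log2 scale, where 30.1% of all tested genes were higher and 42.8% lower. Fibroblast markers summed to at most 0.504 RPKM, with 4 of 8 of them at 0 in all libraries. Of the 4 tuft cell markers 2 were too low to be tested. Reads of another gene inside a member's span cannot be told apart where the counting did not use strand, which is not given: 17 members have such a gene in RefSeq, 7 of them a small nucleolar RNA gene, and Npm1 is known for many processed pseudogenes, so its level is uncertain.

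In DMSO, the mean share of reads taken by the members was highest on day 1 and lowest on day 5. No member passed the test from day 1 to day 3 or from day 4 to day 5 (below). In culture 2 the median member was at 6.12 on day 1 and 6.15 on day 3 on the log2(RPKM + 1) scale. The members took 0.670% ± 0.00853 of all reads in day 0 DMSO (SD, n = 2 cultures), 1.15% ± 0.0449 on day 1, 1.01% ± 0.0910 on day 3, 0.421% ± 0.0857 on day 4 and 0.357% ± 0.0916 on day 5. Of the 37 members, 35 had their highest group mean on day 1 (15 in DMSO, 20 in atRA) and 35 their lowest on day 5 (30 in RXRi, 5 in DMSO). The same count was not made over all genes, so it describes the members only. The ratio of the highest to the lowest group mean ran from 1.92 (Polr1c) to 7.08 (Dkc1), with a median of 4.11. In RXRi the share was 0.882% ± 0.0488 on day 1, 0.665% ± 0.0479 on day 3, 0.317% ± 0.0228 on day 4 and 0.265% ± 0.0169 on day 5, and both RXRi cultures were below both DMSO cultures on each of these days. In atRA the share was 1.14% ± 0.0610, 0.942% ± 0.119, 0.372% ± 0.0193 and 0.413% ± 0.0389 on days 1, 3, 4 and 5, so that its lowest value was on day 4.

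**Figure D1:**
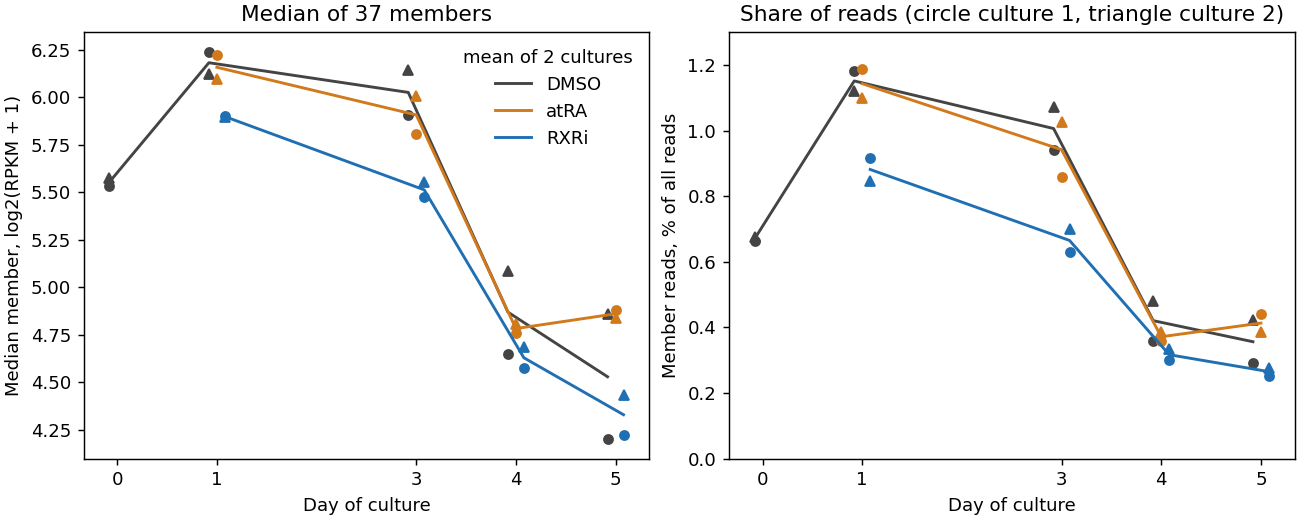
Median level of the 37 members in log2(RPKM + 1) (left) and their share of all reads in percent (right) by day of culture. Lines join the means of 2 cultures, circles are culture 1 and triangles culture 2, with DMSO in grey, atRA in orange and RXRi in blue. The share rises from 0.670% on day 0 to 1.15% on day 1 in DMSO and stands at 0.421% on day 4.

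Levels were compared between members only per gene length, as RPKM, and their mean over the libraries ran from 8.37 (Utp20) to 371 (Npm1). Npm1, which encodes the abundant nucleolar chaperone nucleophosmin, read 367, 396, 405 and 395 RPKM in the 4 day 0 libraries and 728, 660 and 640 in the 3 of day 1 DMSO. Its day 3 DMSO libraries read 627, 541, 645 and 567 RPKM and its day 4 libraries 227, 245, 279 and 285. Days 0, 1 and 4 do not overlap in any library, and days 1 and 3 do. With atRA its cultures were at 673 and 625 RPKM on day 1, 502 and 576 on day 3, 198 and 205 on day 4 and 301 and 222 on day 5, and with RXRi at 538 and 440, 319 and 342, 132 and 141, and 131 and 131. Its day 5 DMSO cultures were at 208 and 266 RPKM.

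The most abundant member of each other role was also higher on days 1 and 3 than on days 4 and 5 in DMSO, with the highest group mean on day 1 for Nop58, Nhp2 and Gnl3 and on day 3 for Emg1 and Polr1c. Nop58, a core protein of the box C/D particles, stood at 141 and 142 RPKM on day 0, 220 and 216 on day 1, 165 and 180 on day 3, 60.4 and 81.9 on day 4 and 47.1 and 69.2 on day 5 in DMSO. In RXRi its cultures read 197 and 166, 116 and 133, 54.2 and 59.2, and 43.0 and 44.9 RPKM on days 1, 3, 4 and 5, and in atRA 211 and 212, 145 and 182, 56.4 and 66.0, and 79.3 and 67.8. The RXRi cultures lie below both DMSO cultures on each day, and the atRA cultures overlap with DMSO on days 3, 4 and 5.
Nhp2, of the box H/ACA particles that turn uridine to pseudouridine, stood at 90.1 and 91.9 RPKM on day 0, 226 and 206 on day 1, 155 and 207 on day 3, 65.6 and 95.7 on day 4 and 50.6 and 83.5 on day 5 in DMSO. In RXRi it read 159 and 179, 133 and 135, 71.8 and 85.3, and 56.2 and 71.1 RPKM, and in atRA 220 and 192, 156 and 159, 70.2 and 79.7, and 71.4 and 73.8. Its RXRi cultures are below DMSO on days 1 and 3 and lie between the DMSO cultures on days 4 and 5.
Emg1, a methyltransferase of the small subunit RNA, stood at 119 and 130 RPKM on day 0, 210 and 199 on day 1, 208 and 217 on day 3, 110 and 122 on day 4 and 84.3 and 110 on day 5 in DMSO. In RXRi it read 157 and 164, 116 and 127, 59.2 and 64.9, and 52.4 and 62.3 RPKM, and in atRA 220 and 198, 186 and 184, 90.6 and 89.9, and 109 and 98.9. Its RXRi cultures are below both DMSO cultures on all 4 days.
Gnl3, the nucleolar GTPase nucleostemin, stood at 85.4 and 91.7 RPKM on day 0, 124 and 117 on day 1, 100.2 and 110 on day 3, 34.0 and 45.1 on day 4 and 27.0 and 41.0 on day 5 in DMSO. In RXRi it read 86.6 and 78.2, 57.4 and 68.5, 23.1 and 24.1, and 17.0 and 19.1 RPKM, and in atRA 117 and 119, 90.8 and 119, 32.4 and 36.2, and 44.1 and 40.4. Its RXRi cultures are again below both DMSO cultures on all 4 days.
Polr1c, a subunit that RNA polymerases I and III share, had the narrowest range of all members. It stood at 51.4 and 54.5 RPKM on day 0, 75.7 and 69.2 on day 1, 70.8 and 76.3 on day 3, 43.0 and 48.7 on day 4 and 39.8 and 45.9 on day 5 in DMSO. In RXRi it read 63.5 and 66.7, 64.6 and 67.5, 50.6 and 55.2, and 45.4 and 50.5 RPKM, and in atRA 75.8 and 64.5, 68.4 and 63.4, 38.3 and 38.5, and 50.3 and 38.5. On day 4 its RXRi cultures are above both DMSO cultures.

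**Figure D2:**
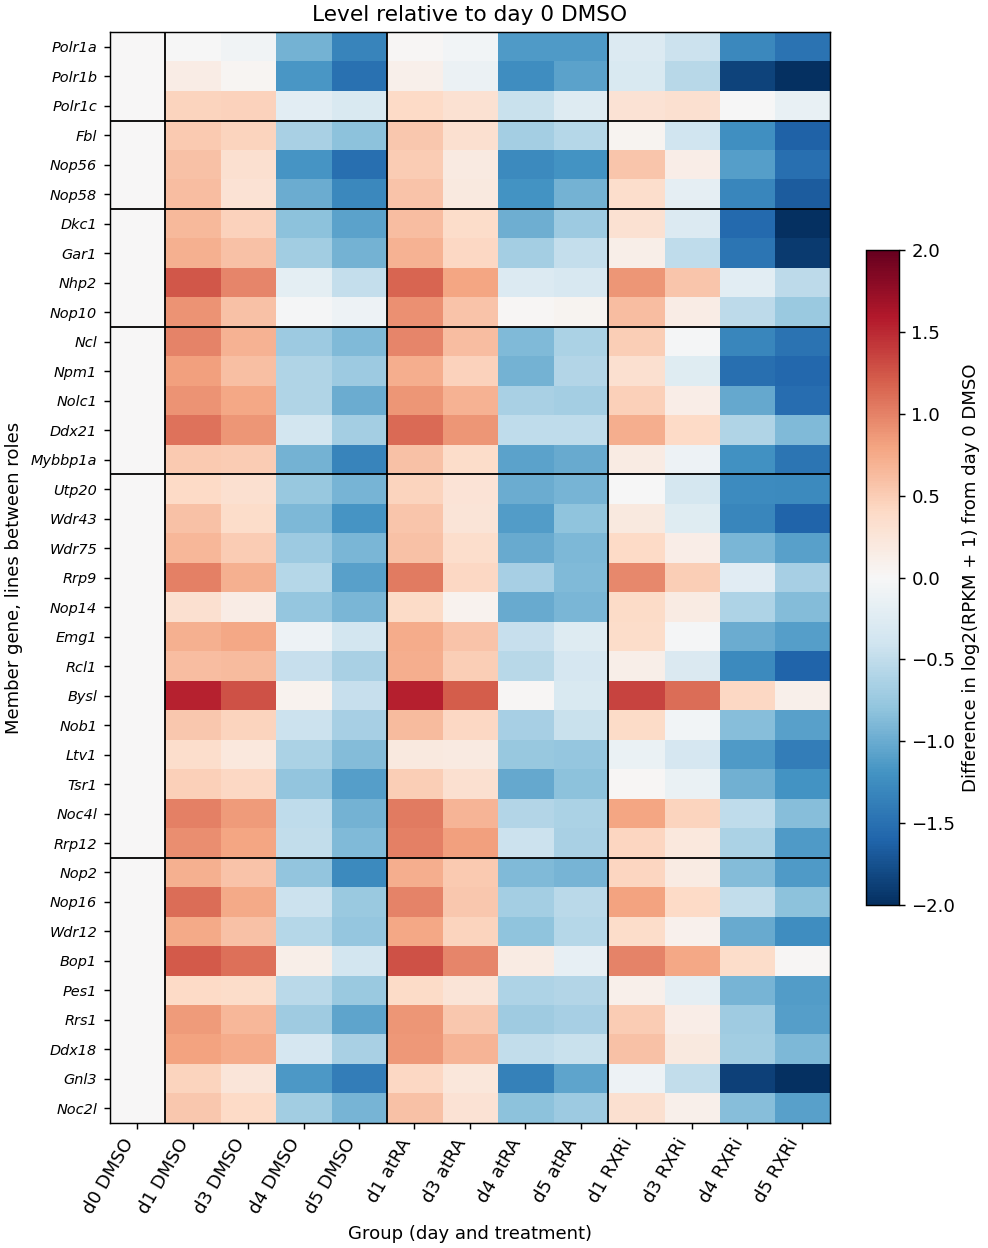
Level of each member (rows, with lines between roles) in each group (columns, day and treatment, mean of 2 cultures) as the difference in log2(RPKM + 1) from day 0 DMSO, red for higher and blue for lower. Columns of days 1 and 3 are mostly red, except that of RXRi on day 3, which is mixed (from -0.56 for Polr1b to 1.12 for Bysl). Those of days 4 and 5 are mostly blue, with Bysl and Bop1 at or above day 0 in all 4 RXRi columns.

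From day 0 to day 1 in DMSO 35 of 37 members rose and 0 fell, by a median of 0.66 on the log2(RPKM + 1) scale, where the median of all 12443 tested genes was -0.09 and 25.6% of them rose and 35.6% fell (limma, adjusted p under 0.05). All 13 small subunit and all 9 large subunit factors were among the 35. Bysl, a small subunit assembly factor, read 9.41, 9.19, 9.71 and 10.1 RPKM on day 0 and 30.1, 29.2 and 30.2 on day 1, with no overlap, and rose most (log2 1.54 ± 0.22 SE, limma adjusted p = 1.4e-05). Nhp2 (1.24 ± 0.20, limma adjusted p = 5.8e-05) and Bop1, of the complex that Pes1 and Wdr12 complete in large subunit processing (1.22 ± 0.24, limma adjusted p = 3e-04), followed. Polr1a, the largest subunit of RNA polymerase I, read 14.9, 15.5, 13.8 and 13.7 RPKM on day 0 and 14.7, 14.0 and 13.8 on day 1, with overlap, and did not pass the test (-0.01 ± 0.14), and nor did Polr1b, the next largest subunit (0.14 ± 0.21). The rise was seen in both mice, with 36 of 37 members above 0 in culture 1 and 37 in culture 2. It was 25 to 29 members with 1 culture of either day left out, and 20 with the shallow day 1 library kept.

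The list of 20 proliferation genes rose with the members, 18 of 20 with a median of 0.80. Larger shifts of cell markers came at the same step. All 6 fetal-like markers rose (median 4.23), from a sum of 33.6 to 56.0 RPKM in the day 0 libraries to 1282 to 1310 on day 1. Of the stem cell markers 6 of 8 fell and 1 rose (median -1.95), from 1329 to 1387 down to 251 to 261 RPKM summed, and of the enterocyte markers 8 of 12 fell and 1 rose (median -1.44). The part of these lists in the members' rise was not tested. In bulk RNA, fewer cells of a type and less RNA per cell cannot be told apart. Further genes of ribosome making moved the same way: 28 of 38 other small subunit factors rose and 0 fell (Nop9 1.31 ± 0.13, an RNA-binding protein needed for the small subunit), 31 of 43 other large subunit factors rose and 2 fell (Eif6 1.48 ± 0.16, which keeps unfinished large subunits from joining), and 12 of 13 exosome genes rose (Exosc1 0.93 ± 0.13). The other polymerase I genes did so less clearly. Of these 12, 4 rose and 1 fell, and the rises are near the share of all tested genes (25.6% rose and 35.6% fell). Rrn3, the initiation factor that recruits the polymerase, was at 0.62 ± 0.08. The 24 cytosolic ribosomal protein genes went the other way, 1 up and 13 down (median -0.32, Rpl5 -0.55 ± 0.11). Lists and members were described by counts beside the share of all genes, and no test of a list was made.

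Successive steps share the samples of the day between them, and each is given by its own values. From day 1 to day 3 in DMSO 0 of 37 members passed the test in limma, and 1 had an unadjusted p under 0.05. The median was -0.14, and 6.19% of all tested genes rose and 6.49% fell. In culture 1 all 37 members were lower on day 3 (median -0.29), and in culture 2 15 were lower and 22 higher (median 0.01).

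From day 3 to day 4, across the change of medium, all 37 members fell and 0 rose in DMSO, by a median of 1.20 on the log2 scale, where all genes had a median of -0.10 and 34.3% of them fell and 20.5% rose (limma). The largest fall was that of Nop56, a core protein of the box C/D particles, which read 134, 126, 153 and 154 RPKM on day 3 and 43.1, 41.0, 56.2 and 58.5 on day 4 (-1.50 ± 0.20, limma adjusted p = 1.4e-05). Mybbp1a, a nucleolar protein named for binding MYB, fell by 1.46 ± 0.18 and Ncl, nucleolin, by 1.42 ± 0.16. The smallest falls were in Nop10 (-0.63 ± 0.15), the smallest protein of the box H/ACA core, and Polr1c (-0.67 ± 0.12). Every day 4 library was below every day 3 library for all 37 members in DMSO, where 37.4% of tested genes showed this, for all 37 in atRA (45.9%) and for all 37 in RXRi (44.2%). The medians were -1.20, -1.23 and -0.94, and the largest fall was in Gnl3 with atRA (-1.58) and with RXRi (-1.37).
Under median-of-ratios scaling, which divides out a shift that most genes share, 37 members still fell (median -1.04), where 25.6% of all genes fell and 27.8% rose. The median of all genes was then 0.02, and 52.1% of all calls were rises, against 37.4% on the deposited scale. All but Bop1 remained past the threshold with any 1 culture left out, and Bop1 lost it without culture 1 of day 4.

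The fall held across the roles. In the RNA polymerase I genes it was 0.88 ± 0.14 for Polr1a and 1.20 ± 0.21 for Polr1b on the log2 scale. Of the box C/D proteins Nop58 fell by 1.28 ± 0.17 and Fbl by 1.09 ± 0.22. In the box H/ACA set Dkc1 fell by 1.27 ± 0.19, Gar1 by 1.28 ± 0.21 and Nhp2 by 1.17 ± 0.20.
Among the nucleolar proteins Nolc1, a carrier of small nucleolar particles, fell by 1.39 ± 0.22 and Ddx21, an RNA helicase, by 1.25 ± 0.16. The small subunit factors fell by 0.85 ± 0.13 (Ltv1, which leaves the late precursor) to 1.37 ± 0.22 (Noc4l). Wdr75 and Wdr43, members of the complex that loads first on the precursor, fell by 1.23 ± 0.12 and 1.26 ± 0.15, and Nob1, the nuclease that trims the small subunit RNA, by 0.87 ± 0.15.
The large subunit factors fell by 0.90 ± 0.14 (Pes1) to 1.40 ± 0.17 (Gnl3). Rrs1 fell by 1.38 ± 0.19, Nop2, a methyltransferase of the large subunit RNA, by 1.37 ± 0.21, and Ddx18, an RNA helicase, by 1.08 ± 0.13.

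Other lists fell with the members at this step. The 20 proliferation genes all fell (median -1.03), as did 37 of 38 other small subunit factors, 39 of 43 other large subunit factors, 13 of 13 exosome genes, 16 of 17 nucleotide synthesis genes and 10 of 12 other polymerase I genes. Ctps, which makes CTP, fell by 1.54 ± 0.12 and Rrp1b, a nucleolar large subunit factor, by 1.54 ± 0.15. Enterocyte markers rose, 11 of 12 with a median of 3.15, and their sum went from 533 to 632 RPKM in the day 3 DMSO libraries to 5953 to 6662 on day 4. Of the stem cell markers 4 of 8 fell and 1 rose (median -0.72), and of the fetal-like markers 5 of 6 fell (median -0.98). Of 24 ribosomal protein genes 4 fell and 0 rose (Rps2 -0.61 ± 0.15). That is a smaller share of falls than in all tested genes, of which 34.3% fell and 20.5% rose. The part of these cell markers in the members' fall was not tested.

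**Figure D3:**
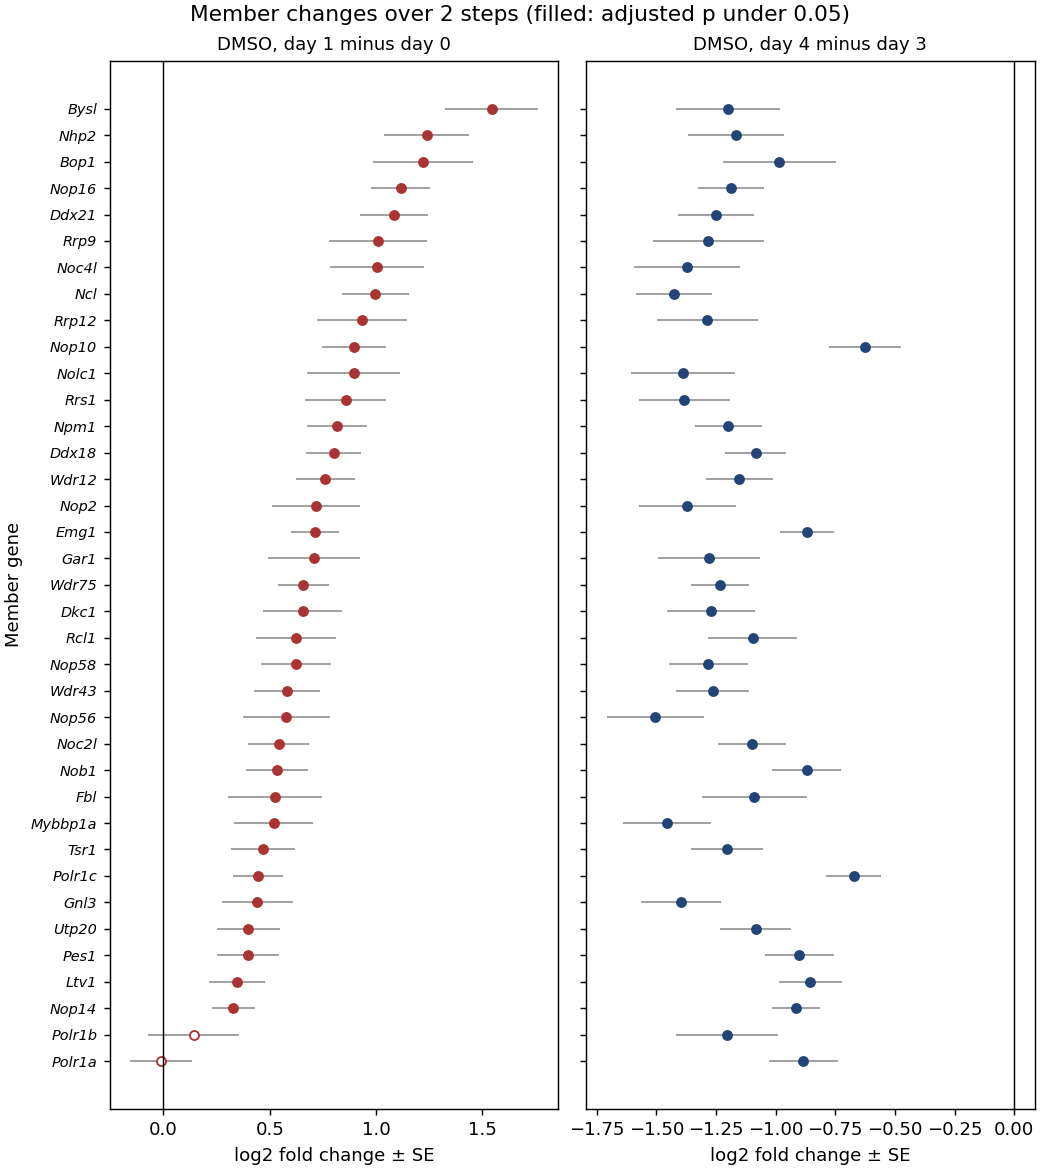
log2 fold change of each member with its standard error in DMSO from day 0 to day 1 (left) and from day 3 to day 4 (right), ordered by the first. Filled points passed the test at an adjusted p under 0.05; 35 of 37 are filled and positive on the left, and all 37 filled and negative on the right.

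From day 4 to day 5 in DMSO all 37 members had values below 0 with a median of -0.28, but 0 passed the test in limma (7 at an unadjusted p under 0.05), where 1.33% of all genes fell and 2.11% rose. The day 5 DMSO cultures differed from each other, with a median member level of 4.20 in culture 1 and 4.86 in culture 2 on the log2 scale, and the median of the proliferation list differed with it (4.65 and 5.23). Without culture 2 of day 5 DMSO, 26 members fell. Of all genes called at this step 61.2% rose, and 83.5% under median-of-ratios scaling.
Against day 0, day 5 DMSO was lower for 34 of 37 members (median -0.92, all genes -0.31), where 51.1% of genes fell and 18.7% rose. Nop56 (-1.51 ± 0.20), Polr1b (-1.50 ± 0.21) and Gnl3 (-1.38 ± 0.17) fell most, and Nop10, Bysl and Bop1 did not pass the test. Under median-of-ratios scaling 27 members fell, where 28.6% of all genes fell and 32.9% rose. The share of rises among all calls went from 26.9% to 53.5%.

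Biogenesis genes were lower in RXRi than in DMSO. The mean over 4 days was lower for 28 of 37 members and higher for 0, with a median of -0.35 against -0.07 for all genes, where 42.8% of genes were lower and 30.1% higher (limma). Against that background, 75.7% of the members were lower. Gar1, a core protein of the box H/ACA particles, fell most (-0.85 ± 0.11, limma adjusted p = 1.6e-06), followed by Rcl1, a factor of small subunit RNA processing (-0.79 ± 0.09) and Npm1 (-0.78 ± 0.07). Of the 28, 26 passed with any 1 culture left out. The 28 were 2 of 3 polymerase I genes, 2 of 3 box C/D, 3 of 4 box H/ACA, 5 of 5 nucleolar proteins, 9 of 13 small subunit and 7 of 9 large subunit genes. The medians of these roles ran from -0.58 (box H/ACA) to -0.23 (large subunit), and the 9 members that did not pass were Polr1c, Nop56, Nhp2, Rrp9, Nop14, Bysl, Noc4l, Nop2 and Bop1.

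The members of a complex did not always stand together. In the box H/ACA set Gar1, Dkc1 (-0.71 ± 0.09) and Nop10 (-0.46 ± 0.08) passed, and Nhp2 was at -0.21 ± 0.10 with an adjusted p of 0.073 in limma. In the box C/D set Fbl (-0.67 ± 0.11) and Nop58 (-0.35 ± 0.08) passed, and Nop56 was at -0.03 ± 0.10. Of the complex of Pes1, Bop1 and Wdr12, Pes1 (-0.40 ± 0.07) and Wdr12 (-0.45 ± 0.07) passed and Bop1 was at 0.02 ± 0.12. Differences between members were not tested.
Among the small subunit factors Emg1 (-0.69 ± 0.06), Ltv1 (-0.51 ± 0.07) and Utp20 (-0.48 ± 0.07) followed Rcl1, and Rrp9, a protein of a small nucleolar particle that guides early cuts, was at 0.12 ± 0.12. Of the nucleolar proteins Ncl was at -0.60 ± 0.08, Nolc1 at -0.50 ± 0.11, Mybbp1a at -0.34 ± 0.09 and Ddx21 at -0.32 ± 0.08. In the large subunit set Gnl3 was lowest (-0.71 ± 0.08), and Nop2 at -0.16 ± 0.10 did not pass.

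By day, 6 members were lower on day 1, 26 on day 3, 17 on day 4 and 16 on day 5, with medians of -0.35, -0.54, -0.34 and -0.25. The background on these days was 9.93%, 25.4%, 37% and 35.1% of genes lower and 10.5%, 18.4%, 22.0% and 28.7% higher. Of the members, 16.2%, 70.3%, 45.9% and 43.2% were lower, so that their share stood well above the background on day 3 and near it on days 4 and 5. On day 1 the 6 were Ncl, Npm1, Ltv1, Emg1, Tsr1 and Gnl3, the last reading 124, 118 and 115 RPKM in DMSO and 85.1, 88.1, 75.8 and 80.6 in RXRi, with no overlap (-0.54 ± 0.17, limma adjusted p = 0.029). With the culture as a block, which pairs samples of a mouse, 11 were lower on day 1. None of the 6 passed with every culture left out in turn: 0 passed without culture 1 of DMSO or culture 2 of RXRi, 1 without culture 2 of DMSO and 3 without culture 1 of RXRi.
On day 3 Gar1 read 63.2, 65.6, 75.7 and 77.2 RPKM in DMSO and 32.9, 33.1, 31.5 and 31.5 in RXRi, with no overlap, and fell by 1.10 ± 0.21 (limma adjusted p = 0.00058). Rcl1 (-0.93 ± 0.19), Npm1 (-0.84 ± 0.14) and Fbl, the methyltransferase of the box C/D particles (-0.84 ± 0.22), were next. Without culture 2 of DMSO 11 members fell on day 3, and without culture 1 of RXRi 13.
On day 4 Emg1 read 104, 116, 119 and 125 RPKM in DMSO and 57.6, 60.8, 67.1 and 62.6 in RXRi, with no overlap (-0.89 ± 0.11, limma adjusted p = 3.4e-06). Npm1 (-0.91 ± 0.14) and Rcl1 (-0.80 ± 0.19) stood beside it. On day 4, 5 members fell without culture 2 of DMSO, and 7 without culture 1 of RXRi. Under median-of-ratios scaling 11 of 37 members fell and 2 rose on day 4. The falls were near the share of all genes, of which 29.8% fell and 29.5% rose. Of all calls under that scaling 49.8% were rises, against 37.3% on the deposited scale.
On day 5 Dkc1, the pseudouridine synthase of the box H/ACA particles, fell by 0.99 ± 0.19, and Gar1 (-0.96 ± 0.21) and Rcl1 (-0.95 ± 0.19) followed. Day 5 counts moved with the DMSO culture: without culture 2 of DMSO 7 members fell and 5 rose, without culture 1 24 fell, and without culture 1 of RXRi 10 fell. Dkc1, Gar1, Nop10, Npm1, Emg1, Rcl1 and Gnl3 passed on day 5 with any 1 culture left out.

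**Figure D4:**
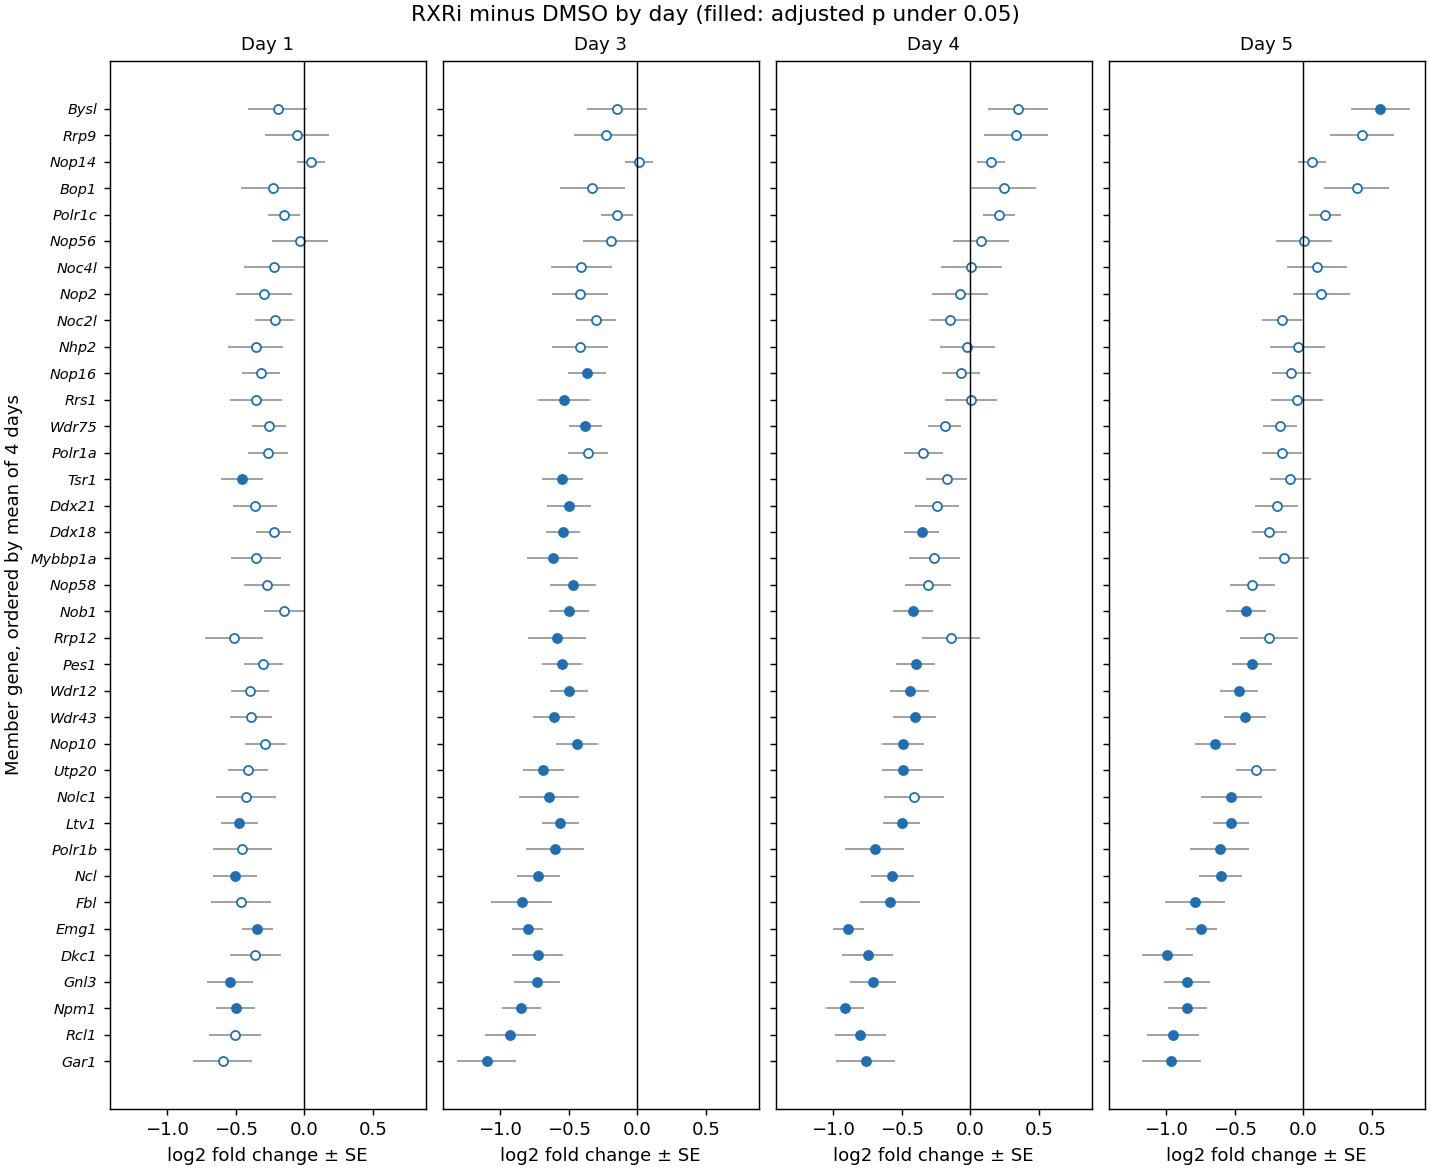
log2 fold change of RXRi over DMSO for each member with its standard error on days 1, 3, 4 and 5, ordered by the mean of the 4 days. Filled points passed the test; 6, 26, 17 and 17 are filled, the last with Bysl filled on the positive side.

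The effect was seen within each mouse on days 1 and 3, and less evenly afterwards. On day 1, 36 and 35 of 37 members were below DMSO in cultures 1 and 2 (medians -0.35 and -0.32), and on day 3, 36 and 36 (-0.50 and -0.58). On day 4, 25 and 32 were below (-0.15 and -0.50), and on day 5, 23 and 33 (-0.05 and -0.46). The medians of all tested genes in cultures 1 and 2 were -0.004 and -0.007 on day 1 and -0.07 and -0.07 on day 3. They were -0.10 and -0.16 on day 4 and -0.04 and -0.08 on day 5. In culture 1 the members were thus close to all genes on days 4 and 5.
Across the members, 15 were lower on all of days 3, 4 and 5, and 5 of these also on day 1 (Ncl, Npm1, Emg1, Ltv1 and Gnl3). At the other end, 11 members were lower on none of the 4 days. Bysl was the member that was higher: it read 4.29, 5.40, 9.32 and 8.80 RPKM in day 5 DMSO and 10.5, 9.17, 10.6 and 10.99 in RXRi, which overlap (0.56 ± 0.22, limma adjusted p = 0.032). It did not pass without culture 1 of DMSO or without either RXRi culture.

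The effect of RXRi on days 4 and 5 differed from that on days 1 and 3 for 3 members, all towards higher values (limma, 19.0% of genes higher and 26.5% lower; the median of the members was 0.08). They were Bysl (0.63 ± 0.22, limma adjusted p = 0.027), Bop1 (0.60 ± 0.24, limma adjusted p = 0.05) and Polr1c (0.33 ± 0.12, limma adjusted p = 0.026). None of the 3 passed with every culture left out in turn: 12 members passed without culture 2 of day 5 DMSO, 7 without culture 2 of day 4 DMSO, 5 without culture 1 of day 3 DMSO, 1 without culture 1 of day 1 DMSO or culture 2 of day 4 RXRi, and 0 without culture 1 of day 1, culture 1 of day 3 or culture 2 of day 5 RXRi, culture 2 of day 3 DMSO, culture 1 of day 4 DMSO or culture 1 of day 5 DMSO. Without culture 1 of day 5 DMSO 3 members, and without culture 2 of day 5 RXRi 1 member, passed in the lower direction. With the culture as a block there were 6. The share of rises among all calls was 41.7%, and 52.8% under median-of-ratios scaling. There 7 members passed as higher, where 25.8% of all genes were higher and 23.1% lower.

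Other lists stood beside the members in RXRi. The 24 ribosomal protein genes were all lower (median -0.48, Rpl5 -0.71 ± 0.05), and 18 of 20 proliferation genes (median -0.69, Pcna -0.95 ± 0.07, the sliding clamp of DNA replication). Of the 38 other small subunit factors 24 were lower and 1 higher, of the 43 other large subunit factors 27 and 1, of 13 exosome genes 7 and 0, of 12 other polymerase I genes 5 and 1, and of 17 nucleotide synthesis genes 13 and 2. Their medians ran from -0.13 to -0.42. Against the 42.8% of all genes that were lower, the counts of the exosome and polymerase I lists are at or near the background. Enterocyte markers were lower in 12 of 12, at 256 to 277 RPKM summed in day 1 RXRi against 631 to 746 in DMSO, and 271 to 336 against 16100 to 20970 on day 5. Stem cell markers were lower in 7 of 8 and higher in 1 (median -2.02), at 11.5 to 15.1 RPKM summed in day 5 RXRi against 123 to 394 in DMSO. Paneth cell markers were lower in 6 of 6 (median -4.21), and goblet cell markers lower in 5 of 6 and higher in 1 (median -0.98). The 6 fetal-like markers were higher in 6 of 6 (median 2.49). The part of these markers in the members' change was not tested.

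**Figure D5:**
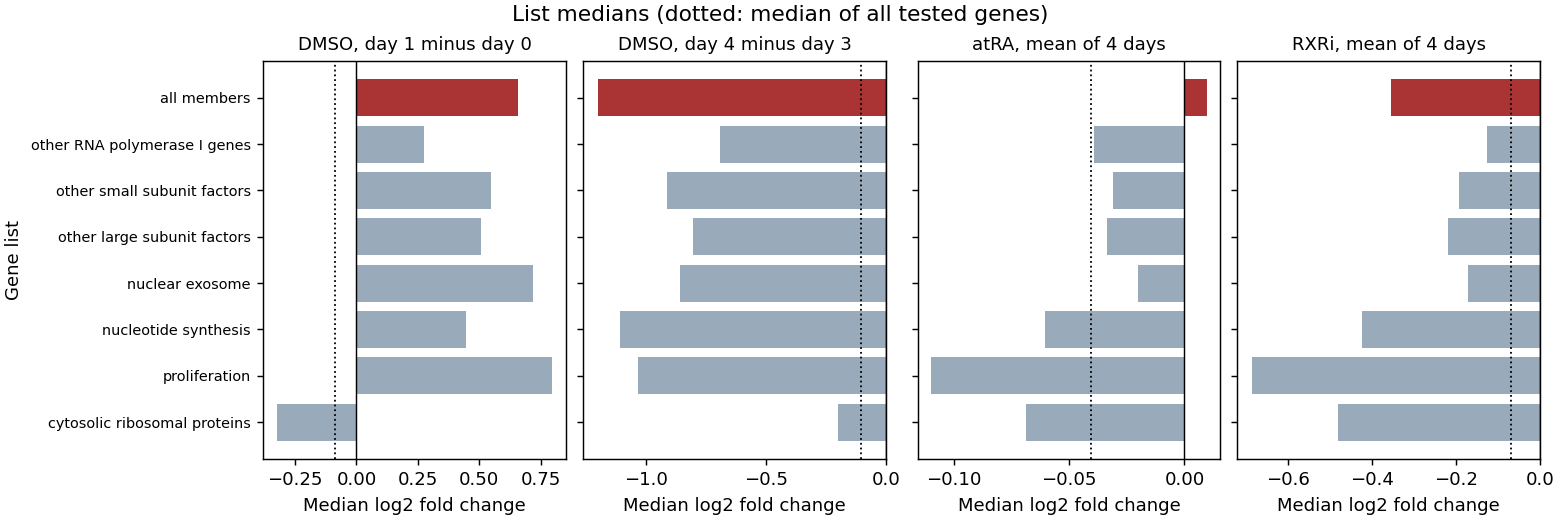
Median log2 fold change of the 37 members (red) and of 7 other gene lists (grey) in 4 comparisons, with the median of all tested genes as a dotted line. The horizontal scale differs between panels: the members stand at 0.66, -1.20, 0.01 and -0.35.

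With atRA 0 of 37 members passed the test on day 1, day 3, day 4 or day 5, or in the mean of the 4 days (limma; 0, 0, 4 and 3 members at an unadjusted p under 0.05 by day, and 0 in the mean). The medians were 0.01, -0.11, -0.13, 0.21 and 0.01. All genes were called higher and lower at 1.93% and 1.53% on day 1, 4.32% and 4.36% on day 3, 3.58% and 7.35% on day 4, 2.14% and 2.89% on day 5, and 7.98% and 15.0% in the mean. Of all member values on these days, the lowest was Npm1 on day 4 (-0.36 ± 0.14) and the highest Gar1 on day 5 (0.47 ± 0.21). A p that misses the threshold does not show that atRA left the members alone.
On day 4, 22 members were above DMSO in culture 1 and 37 below in culture 2, and on day 5, 37 were above in culture 1 (median 0.55) and 31 below in culture 2 (-0.11). All tested genes had medians of -0.10 and -0.15 in cultures 1 and 2 on day 4, and of 0.08 and -0.09 on day 5. Without culture 2 of day 5 DMSO 17 members rose with atRA on day 5. The mean over the days gave 1 member lower without culture 1 of day 5 DMSO and 2 without culture 1 of day 5 atRA. With the culture as a block 1 member was lower on day 4. Under median-of-ratios scaling the rises among all calls went from 32.8% to 64.3% on day 4 and from 34.8% to 51% in the mean.
The effect of atRA did not change for any member between days 1 and 3 and days 4 and 5 by this test (0 at an adjusted and 0 at an unadjusted p under 0.05; 0.948% of genes higher and 1.90% lower), with 33.3% of all calls rises and 50.2% under median-of-ratios scaling.

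The test of atRA against RXRi over the 4 days gave 26 members higher and 1 lower in atRA (median 0.37, all genes 0.04), where 40.8% and 34.3% of genes were. Its samples also serve in the comparisons with DMSO. No DMSO sample enters its fold changes, but its p-values rest on the spread pooled over all 13 groups, DMSO included. Gar1 (0.93 ± 0.11), Rcl1 (0.85 ± 0.09) and Gnl3 (0.73 ± 0.08) were highest. Nop14, a small subunit factor, was the lower one (-0.13 ± 0.05, limma adjusted p = 0.028). The 26 were all among the 28 lower in RXRi.

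The members moved closely together. Over the 26 culture means, which share libraries and groups, each member's Pearson r to the mean of the others had a median of 0.98, and the lowest were Bysl (0.865), Polr1c (0.865) and Bop1 (0.866). The genes outside the 37 most like the members' mean were Tfdp1, Prmt1, Pa2g4, Prpf4, Rrp1b, Atic, Gart, Smn1, Gemin5 and Prmt5, with r from 0.996 to 0.993. Of the 50 most alike, 9 were in the lists of other biogenesis genes named above. These lists hold 12, 38, 43 and 13 of the 12443 tested genes. The r within other sets of genes was not measured. Prmt1 and Prmt5 are arginine methyltransferases, and Atic and Gart are enzymes of purine synthesis.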

How the data were processed

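Each library is mRNA sequencing of intestinal organoids. The unit of the deposited table is RPKM (reads per unit of gene length and of library size), per the file headers, and it holds 52 libraries. The submitters' processing notes name bcl2fastq 2.17, STAR 2.5.2b and the build mm10. How reads were counted, with which annotation and whether by strand, is not given in the sources used here. Whole reads came back from the values of all 19708 genes above 0, to within 0.001 of a read, and served only for depth and shares of reads.

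The analysis scale is log2(RPKM + 1), which understates changes of low genes. Technical duplicates were averaged there, leaving 26 culture means. A gene was tested if it reached 1 RPKM in 4 or more libraries. This held for 12443 genes (by chance also the read total of the library left out) and not for 11673. The fit used limma 3.58.1 (R 4.3.3) with all 13 groups together, the trend and robust options and 13 residual degrees of freedom. Tests were two-sided, adjusted by Benjamini-Hochberg within each of 18 comparisons, with a threshold of 0.05, and ± after a fold change is the standard error. p-values rest on the spread between 2 cultures per group, pooled over all 13 groups and moderated by limma. The same 2 animals supply every group, so the residual degrees of freedom do not count independent animals. An exact permutation test of a single value, 2 against 2, cannot go below p = 0.333. The fit was tested on simulated data.

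Cultures are paired by animal. As a check, deviations from the group means were correlated between same-numbered cultures of each of 78 pairs of groups, with a median of 0.15 (-0.32 to 0.76) and 47 above 0.1. The culture is a block in an alternative. Others were a pseudocount of 0.1, no filter, median-of-ratios scaling, duplicates averaged before the log, no robust option, the shallow library kept, and each culture left out.

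The members and lists were chosen with earlier results of these data known. The genes named are any member, the most abundant member of each role in every group, the 3 largest changes each way and any member against the majority in a comparison, up to 3 genes of each list by p, the 10 most similar genes and the 3 least similar members. Promoters are from RefSeq (GRCm38.p6), matched by Entrez identifier, and coordinates are 1-based.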

Additional observations from a re-analysis of the deposited data

Results flagged for a closer look

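The effect of RXRi on days 4 and 5 differed from that on days 1 and 3 for Polr1c by 0.33, for Bysl by 0.63 and for Bop1 by 0.60 on the log2 scale, by the interaction test of limma (adjusted p = 0.026, 0.027 and 0.05). The difference from DMSO of these 3 members was below 0 on days 1 and 3 and above 0 on days 4 and 5, and 8.11% of the members passed this test where 19.0% of all genes did so in the same direction.

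The library left out of day 1 DMSO held 91 reads of the members among 12443 reads, a share of 0.731% (exact binomial 95% interval 0.589% to 0.897%, counting error only), where 3 reads, the limit that a count of 0 allows, are 0.0241%. The share in day 1 DMSO was 1.15% and in day 0 DMSO 0.670%. In the 12 groups with 4 libraries, no single library was flagged in the median member level by Dixon's test. Its rate of about 1 group in 20 by chance holds for independent values, and these libraries are 2 pairs of duplicates. A culture that differs moves both of its libraries, so this test cannot flag it. The day 5 DMSO cultures, at 4.20 and 4.86 on the log2 scale, were not flagged.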

How the results depend on the processing

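Of 230 changes of single members past the threshold, 1508 of 1610 values under other settings stayed past it in the same direction, 92 fell short and 10 changed direction. With a culture left out, 1426 of 1616 stayed, 190 fell short and 0 changed direction. Where counts moved by more than 1.5 times the cause was not tested, and 2 cultures per group limit every count.

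Keeping the shallow day 1 DMSO library gave 20 members higher from day 0 to day 1, and for RXRi 1 lower on day 1, 15 on day 3, 9 on day 4 and 10 on day 5, and 0 in the change of its effect with time. The shallow library is in none of the samples compared on days 3, 4 and 5, and the medians there stayed at -0.54, -0.34 and -0.25. Those counts share the fit and its pooled spread with day 1 DMSO. With that library, Nop10 (-0.96), Rrp9 (-0.52), Noc4l (-0.54) and Bop1 (-0.40) turned from day 0 to day 1, Npm1 (0.0104) and Emg1 (0.0158) for RXRi on day 1, Nop10 (0.001) for its mean, and Bop1 (-0.21) for its change with time. Median-of-ratios scaling gave 11 lower for RXRi on day 1 and 11 on day 4, where 11.4% and 29.8% of all genes were lower. For the change of RXRi with time it gave 7 higher, where 25.8% of all genes were higher. This scaling also turned Polr1c (0.071) and Emg1 (0.0133) from day 0 to day 5. It moved the median of all genes by 0.33 from day 0 to day 5, 0.12 from day 3 to day 4, 0.14 for atRA and 0.12 for RXRi on day 4. No filter gave 3 lower for RXRi on day 1. The replicate block (culture) gave 1 for atRA on day 4, 11 for RXRi on day 1 and 6 for its change with time, and moved no other count by over 1.5 times.

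With 1 culture left out, members passing ran from 0 to 26 from day 4 to day 5, 0 to 17 for atRA on day 5 and 0 to 2 in its mean, and for RXRi 0 to 3, 11 to 23, 5 to 22 and 7 to 24 on days 1, 3, 4 and 5 and 0 to 12 in its change with time. They ran from 36 to 37 from day 3 to day 4, 26 to 31 for the mean of RXRi and 26 to 27 for atRA against RXRi.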

Other observations

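The 11 genes of the MYC network did not all move one way. The list holds MYC genes and repressors such as Mxd4, so its counts of rises and falls cannot show whether the network moved as a group. From day 0 to day 1 in DMSO Myc rose (0.81 ± 0.17), and Mycn (-0.80 ± 0.12) and Mxd4 (-1.65 ± 0.23), a partner of MAX that represses E-box genes, fell. 4 of 11 rose and 6 fell in limma, where 25.6% of all genes rose and 35.6% fell. From day 3 to day 4, 6 of the 11 rose and 3 fell, where 20.5% of all genes rose and 34.3% fell. Myc (-0.73 ± 0.17) and Max (-0.67 ± 0.13), the partner that MYC needs to bind DNA, were among those that fell. Mxd4 (1.61 ± 0.23) was among those that rose. In the mean of RXRi 3 of the 11 were higher and 4 lower, where 30.1% and 42.8% of all genes were. Mycl was lower (-1.34 ± 0.06) and Mxd1 higher (1.70 ± 0.16), and Myc was at 0.07 ± 0.09.

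Of 14 p53 target genes 10 were higher and 1 lower in the mean of RXRi (30.1% and 42.8% of all genes), with Phlda3 at 0.99 ± 0.09, Plk2 at 1.44 ± 0.15 and Mdm2, the ligase that limits p53, at 0.65 ± 0.07. Cdkn1a, which arrests the cell cycle, was at 0.18 ± 0.12 and did not pass. In the mean of atRA 8 of the 14 were lower and 0 higher (15.0% and 7.98% of all genes). Mdm2 and Cdkn1a were named after their values were seen, and so were Myc and Mycn where they are not among the 3 smallest p.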
